A study of Mus musculus with 4 samples.

Results

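The genes of the cell division cycle and of DNA replication were examined in the neocortex of mouse embryos that lack munc18-1. A gene belonged to the set when its platform symbol named a cyclin, a cyclin-dependent kinase or its inhibitor, an E2F or retinoblastoma protein, a component of replication origins, helicases, DNA polymerases, replication factor C or ribonucleotide reductase, a Cdc gene other than Cdc42, a checkpoint or mitotic kinase, a centromere protein, or the genes Pcna, Top2a, Mki67 and Casp8ap2, and when it had a value on 3 or more arrays. The symbols matched 103 probes, each for a gene of its own. Of these, 98 genes had enough values, among 5140 genes so measured on the array. The other 5, Ccna1, Ccne2, Cdc25c, Aurkc and Cdkn2aipnl, had no value on any array. The choice was by name, so that it also took in relatives that do not drive division, such as Cdk5 and its activators in neurons and the chaperone partner Cdc37.

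Each of 4 two-colour arrays set total RNA of a different munc18-1 null mutant against the same control pool, labelled wt. Both RNAs came from the neocortex at embryonic day 16 on a C57BL/6 background, and the pool was made from 4 biological replicates. The null RNA carried Cy5 on replicates 2, 3 and 4 and Cy3 on replicate 1, whose source name gives day 14 while its other labels give day 16. Munc18-1 is a protein needed for the fusion of synaptic vesicles. No treatment is named, and a whole neocortex holds progenitors, neurons, vessels and other cells together. Fewer cells of a type and less RNA per cell cannot be told apart in such tissue.

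The values were the authors' log ratios of the channels, taken as log2, and the channel in the numerator is not given in the sources used here. A positive sign therefore does not say which genotype had more RNA, and signs are given as deposited. The comparison used replicates 2 to 4, which share a dye orientation, and was a test of the mean ratio against 0 with limma over all 5720 probes measured on them. The single pool counts as 1 control sample, which leaves the spread between controls out of every test. On these arrays dye and genotype cannot be told apart. A log ratio carries no level, so neither the tissue nor the expression of a member could be checked against an absolute scale.

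Cell division runs through the activity of cyclin-dependent kinases, which are switched on by cyclins and held back by inhibitors. D-type and E-type cyclins with their kinases release E2F factors from the retinoblastoma protein, and E2F factors then turn on the genes that license origins and copy DNA. Checkpoint kinases stop the cycle when DNA is damaged, and the spindle checkpoint holds mitosis until every centromere is attached. In the embryonic neocortex, progenitors of the ventricular zones divide while young neurons leave the cycle for good, so that RNA of these genes comes largely from the dividing layer.

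Many cell cycle genes are known to be controlled through short elements in their promoters. The promoters of 4 members at an unadjusted p under 0.05, Casp8ap2, Chek2, Bub1 and E2f3, are shown because they differ in sign and in elements, and that of Cdk1 because its ratio lay near 0. Sequences are from RefSeq on build GRCm38.p6, where 100 promoters of 83 members were found, each from 250 bases before to 50 bases after a gene start. Printed are the 200 bases before the start, 5′ to 3′ on the strand of the gene, at chr4:32615270-32615469 on the plus strand for Casp8ap2, chr5:110839783-110839982 on the plus strand for Chek2, chr2:127831860-127832059 on the minus strand for Bub1, chr13:29986064-29986263 on the minus strand for the E2f3 start with most matches, and chr10:69352913-69353112 on the minus strand for Cdk1. Capitals mark the letters of an E2F element, of a CHR (the cell cycle homology region of mitotic genes) or of a CCAAT box.
Casp8ap2: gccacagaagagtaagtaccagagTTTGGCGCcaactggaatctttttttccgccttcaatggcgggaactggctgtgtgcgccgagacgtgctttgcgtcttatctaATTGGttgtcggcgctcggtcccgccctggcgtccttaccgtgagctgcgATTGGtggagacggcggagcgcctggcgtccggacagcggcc
Chek2: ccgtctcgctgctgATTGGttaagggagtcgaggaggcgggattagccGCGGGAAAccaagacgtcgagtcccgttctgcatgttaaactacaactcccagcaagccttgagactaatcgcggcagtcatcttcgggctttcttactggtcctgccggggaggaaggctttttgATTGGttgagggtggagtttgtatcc
Bub1: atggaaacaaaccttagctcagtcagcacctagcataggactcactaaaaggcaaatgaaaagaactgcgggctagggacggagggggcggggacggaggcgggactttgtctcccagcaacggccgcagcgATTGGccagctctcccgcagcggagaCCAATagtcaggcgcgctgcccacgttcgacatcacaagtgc
E2f3: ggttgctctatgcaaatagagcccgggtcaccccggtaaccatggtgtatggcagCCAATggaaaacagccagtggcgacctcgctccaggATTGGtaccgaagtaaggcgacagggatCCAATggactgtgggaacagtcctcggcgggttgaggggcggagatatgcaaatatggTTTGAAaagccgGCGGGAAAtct
Cdk1: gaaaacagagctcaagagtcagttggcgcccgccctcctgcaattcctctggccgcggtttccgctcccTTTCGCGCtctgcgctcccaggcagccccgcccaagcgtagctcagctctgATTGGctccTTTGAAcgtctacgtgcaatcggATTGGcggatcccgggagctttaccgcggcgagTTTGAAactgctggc

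The E2F element was searched as TTTCCCGC, TTTCGCGC, TTTGCCGC or TTTGGCGC, the CHR as TTTGAA or TTCGAA, and the CCAAT box as CCAAT, each on both strands with overlaps allowed. An E2F element was found in 19% of the member promoters, against 2.85% of all 21263 promoters of protein-coding genes. The CHR was found in 24% of member promoters and 17.6% of all, and the CCAAT box in 58% of member promoters and 38.2% of all. The element did not go with one sign. Of 18 tested members with an E2F element, 6 had a positive mean and 12 a negative one, with a median of -0.11. Among the 64 tested members whose promoters lacked it, 33 were positive and the median was 0.0088. Of 22 tested members with a CHR, 13 were positive and 9 negative. Casp8ap2 and Chek2, on the positive side, and E2f3, on the negative side, all held an E2F element and CCAAT boxes in the stretches printed. No E2F element was found for Bub1, Ccne1, Cdc45, Cdkn2c, Cenpk or Chek1, the other members at an unadjusted p under 0.05. The promoter of Bub1 held a CHR outside the stretch printed. The stretch of Cdk1 held all 3 elements. A match is a description of letters and not a site of binding.

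As a set the cell cycle genes stayed near 0, with about as many positive as negative members. Of 97 members measured on replicates 2 to 4, 46 had a positive mean (47.4%, as over all probes) and 51 a negative one. The median was -0.0041 against -0.016 over all probes. Counts by sign for elements, roles, complexes and lists stand beside that 47.4% of all probes. With limma, 0 members had an adjusted p under 0.05, as had 0 of all probes (0%). At an unadjusted p under 0.05 stood 9 members, or 9.28%, against 9.67% of all probes. The 6 positive ones were Casp8ap2, Bub1, Chek1, Chek2, Cdkn2c and Cenpk, beside 5.61% of probes so listed, and the 3 negative ones were E2f3, Ccne1 and Cdc45, beside 4.06%. These shares lie close to the background, so that the count does not set these genes apart from the rest of the array. Without replicate 2 the count was 4 (Casp8ap2, Cdc45, Chek1 and E2f3), or 4.12% of members, beside 4.09% of all probes. Without replicate 4 it was 9, beside 10.9%, with Cenpc1 and E2f1 in place of Ccne1 and Cdkn2c. Without replicate 3 it was 10, beside 9.5%, and Chek1, Chek2, Cdkn2c and Cenpk were no longer among them.

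**Figure D1:**
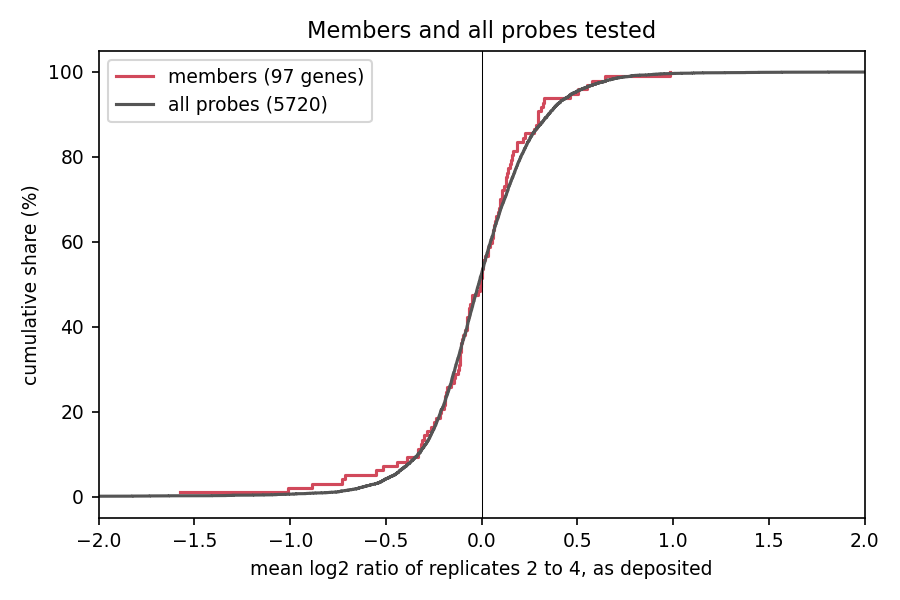
Cumulative share (%) of the 97 tested cell cycle members and of all 5720 probes by their mean log2 ratio over replicates 2 to 4, with signs as deposited. The curves run close together and cross 0 near their middle, with more of the members at the far negative end, down to -1.58.

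The spread of the set was also like that of the array. Of 97 members, 36 kept one sign over replicates 2 to 4, or 37.1% against 33.5% of all probes. They were 18 positive members, beside 16.3% of all probes, and 18 negative ones, beside 17.3%. A mean beyond 0.5 in size was seen for 12 members, or 12.4%, against 8.72%. The SD over members was 0.43, 0.69 and 0.37 on replicates 2, 3 and 4, beside 0.43, 0.63 and 0.40 over all probes. The value largest in size came from replicate 3 for 45 of 97 members, and for 50.1% of all probes, so this array weighs most in the means. The median half-width of the members' 95% intervals was 0.40, or 1.32-fold.

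**Figure D2:**
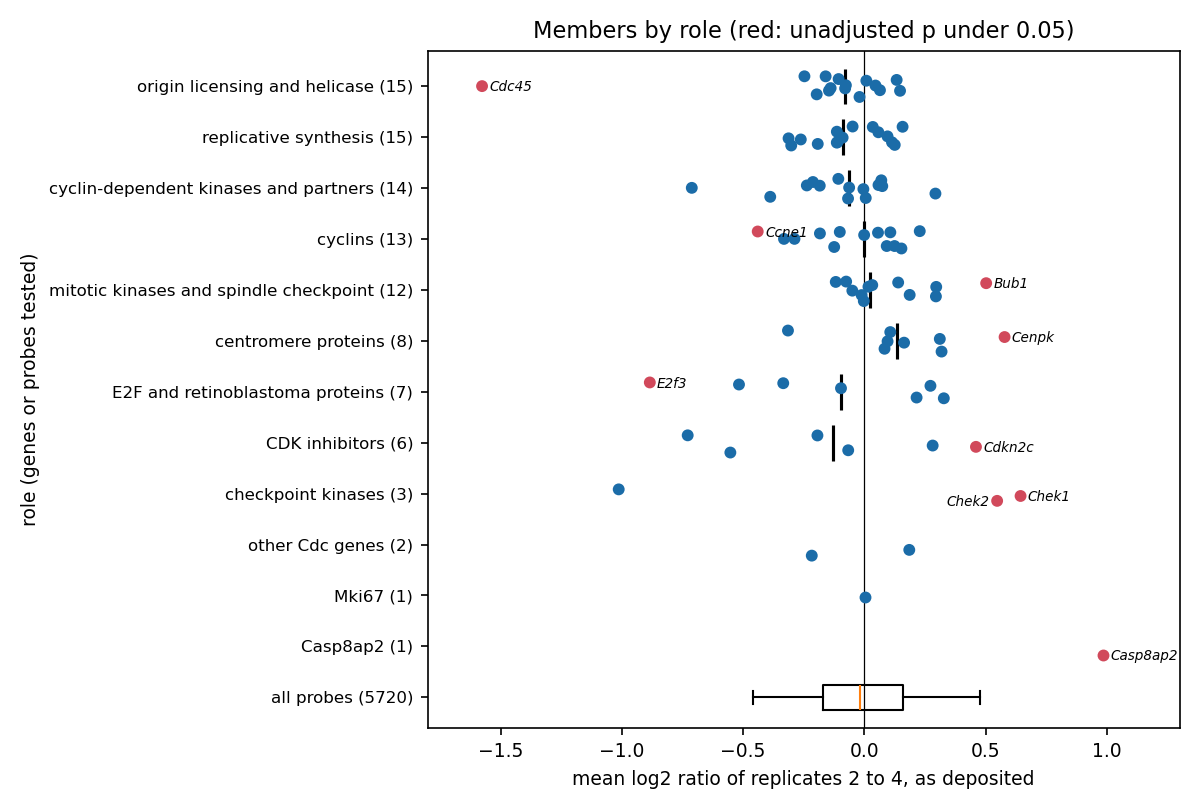
Mean log2 ratio over replicates 2 to 4, signs as deposited, for each tested member by role, with the number tested in brackets. Red points are the 9 members at an unadjusted p under 0.05, black bars are medians of roles with 4 or more genes, and the box below shows the quartiles of all probes with whiskers at their 5th and 95th percentiles. Most members lie within the whiskers, and the red points fall on both sides of 0.

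Among the genes with cyclin symbols, 6 had a positive and 7 a negative mean, from -0.44 to 0.23. The 7 include Ccndbp1, which is not itself a cyclin, at -0.10. Cyclin E1, Ccne1, the partner of Cdk2 at entry into S phase, had -0.29, -0.43 and -0.60 on replicates 2, 3 and 4. All 3 were negative, with a mean of -0.44 ± 0.16 (SD, n = 3) and a 95% interval of -0.80 to -0.077. Its adjusted p was 0.473 in limma, and replicate 1 had -0.071. Ccne1 was no longer at an unadjusted p under 0.05 without replicate 2, without replicate 4 or with replicate 1 turned, where its means were -0.51, -0.36 and -0.31 in that order.

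The D-type cyclins answer growth signals in G1, and their means were all negative, although none was at an unadjusted p under 0.05. Ccnd1, abundant in cortical progenitors, had -0.50, -0.044 and -0.45 on replicates 2, 3 and 4, a mean of -0.33 ± 0.25 (SD, n = 3) and an adjusted p of 0.558. Ccnd2, the D-type cyclin of the basal side of the ventricular zone, had -0.49, -0.31 and -0.064 on replicates 2, 3 and 4, a mean of -0.29 ± 0.21 (SD, n = 3) and an adjusted p of 0.596. Both were negative on each of these 3 arrays, whereas Ccnd3 had -0.48, 0.012 and 0.092 on replicates 2, 3 and 4 and changed sign between arrays. On replicate 1 the D-type cyclins had -0.34, -0.21 and -0.33 as deposited, for Ccnd1, Ccnd2 and Ccnd3 in that order. With replicate 1 turned, the mean of 4 arrays was -0.16 for Ccnd1 and -0.16 for Ccnd2. The cyclins of S phase and mitosis stayed close to 0, Ccna2 with a mean of 0.056 ± 0.11 (SD, n = 3) and Ccnb2 with 0.11 ± 0.33.

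The kinases and their partners held no member at an unadjusted p under 0.05 among 14 tested, 5 positive and 9 negative. The partners Cdk5r1, Cdk5r2 and Cdk2ap1, which are not kinases, were all among the negative ones. Cdk1, the kinase of mitosis, had a mean of -0.067 ± 0.26 (SD, n = 3) with a 95% interval of -0.47 to 0.34. The interphase kinases Cdk2, Cdk4 and Cdk6 had 0.074 ± 0.18, -0.063 ± 0.077 and 0.058 ± 0.33 in that order, and their 95% intervals included 0. Cdk4 had the smallest SD of these kinases, from -0.13 on replicate 2 to 0.020 on replicate 4, and its 95% interval was -0.41 to 0.28. Of the relatives with roles outside division, Cdk14 had 0.29 ± 0.18 and was positive on replicates 2 to 4, with 0.096 on replicate 1 as deposited. Cdk18 had -0.24 ± 0.10 and was negative on replicates 2 to 4, with 0.17 on replicate 1. Cdk5, the kinase of postmitotic neurons, had 0.0056 ± 0.10. Its activator Cdk5r2 had -2.05, -0.064 and -0.021 on replicates 2, 3 and 4, so that its mean of -0.71 rested on replicate 2. The other activator, Cdk5r1, had 0.066, -1.17 and -0.064 on replicates 2, 3 and 4, and among these replicate 3 stood apart. Replicate 1 had -0.67 for Cdk5r1 as deposited.

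Some inhibitors of these kinases differed widely between arrays and others did not, with SDs from 0.12 for Cdkn1c to 1.69 for Cdkn1b. Cdkn2c, an INK4 protein that blocks Cdk4 and Cdk6 and acts in progenitors that leave the cycle, had 0.35, 0.67 and 0.36 on replicates 2, 3 and 4. All 3 were positive, with a mean of 0.46 ± 0.18 (SD, n = 3), a 95% interval of 0.090 to 0.83 and an adjusted p of 0.473 in limma. On replicate 1 it had -0.26. Cdkn2c was no longer at an unadjusted p under 0.05 when replicate 2, 3 or 4 was left out, with means of 0.52, 0.36 and 0.51 in that order. The same held with replicate 1 added as deposited, at a mean of 0.28, but not with it turned, at 0.41.

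The Cip/Kip inhibitors act on many cyclin complexes. Cdkn1a and Cdkn1b were positive on replicate 3 and negative on the other arrays as deposited, whereas Cdkn1c was negative on all 4. Cdkn1b, which drives cell cycle exit of cortical neurons, had -1.34, 1.18 and -2.03 on replicates 2, 3 and 4. Its value on replicate 1 was -0.70. Its SD of 1.69 was the largest of all members tested, and its mean of -0.73 had an interval of -2.19 to 0.74. Without replicate 3 the mean of Cdkn1b was -1.68 and stood at an unadjusted p under 0.05. Cdkn1a, a target of the p53 tumour suppressor, had -0.18, 1.21 and -0.19 on replicates 2, 3 and 4, where replicate 3 alone was far from 0. Cdkn1c, an imprinted inhibitor, had a mean of -0.19 ± 0.12 (SD, n = 3) and an adjusted p of 0.680. Of the other INK4 genes, Cdkn2a had 0.39, -2.07 and 0.019 on replicates 2, 3 and 4 and no value on replicate 1, and Cdkn2d had a mean of -0.067.

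The E2F and retinoblastoma proteins, which link the kinases to transcription, included the clearest negative member. E2f3, an activator E2F of dividing progenitors, had -1.26, -0.70 and -0.70 on replicates 2, 3 and 4. All 3 arrays were negative, and the 95% interval of the mean was -1.32 to -0.45. The mean was -0.88 ± 0.32 (SD, n = 3), or 1.85-fold in size, with an adjusted p of 0.450 in limma. Replicate 1 had -1.27 as deposited, the same sign as the other arrays in the file although its dyes were swapped. If that array has to be turned, the mean of 4 arrays is -0.35 and no longer at an unadjusted p under 0.05, and if not, it is -0.98.

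The other E2F factors and the pocket proteins missed that mark. E2f1, a second activator, had -0.33, -1.14 and -0.081 on replicates 2, 3 and 4, a mean of -0.52 ± 0.55 (SD, n = 3) and an adjusted p of 0.545. Replicate 1 had -0.42 as deposited, and with it turned the mean of 4 arrays was -0.28. E2f5 and E2f6, which mainly repress, had 0.22 ± 0.30 and -0.096 ± 0.23. The retinoblastoma gene Rb1, which restrains E2F factors, had 0.65, 0.12 and 0.21 on replicates 2, 3 and 4. Its mean was 0.33 ± 0.28 (SD, n = 3) with an adjusted p of 0.571. On replicate 1 Rb1 had 0.25 as deposited, and with that array turned the mean of 4 arrays was 0.18. Its relatives had 0.27 ± 0.24 for Rbl2 and -0.33 ± 0.46 for Rbl1. The activator factors thus had negative means and Rb1 a positive one, and of these genes E2f3 alone was at an unadjusted p under 0.05.

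**Figure D3:**
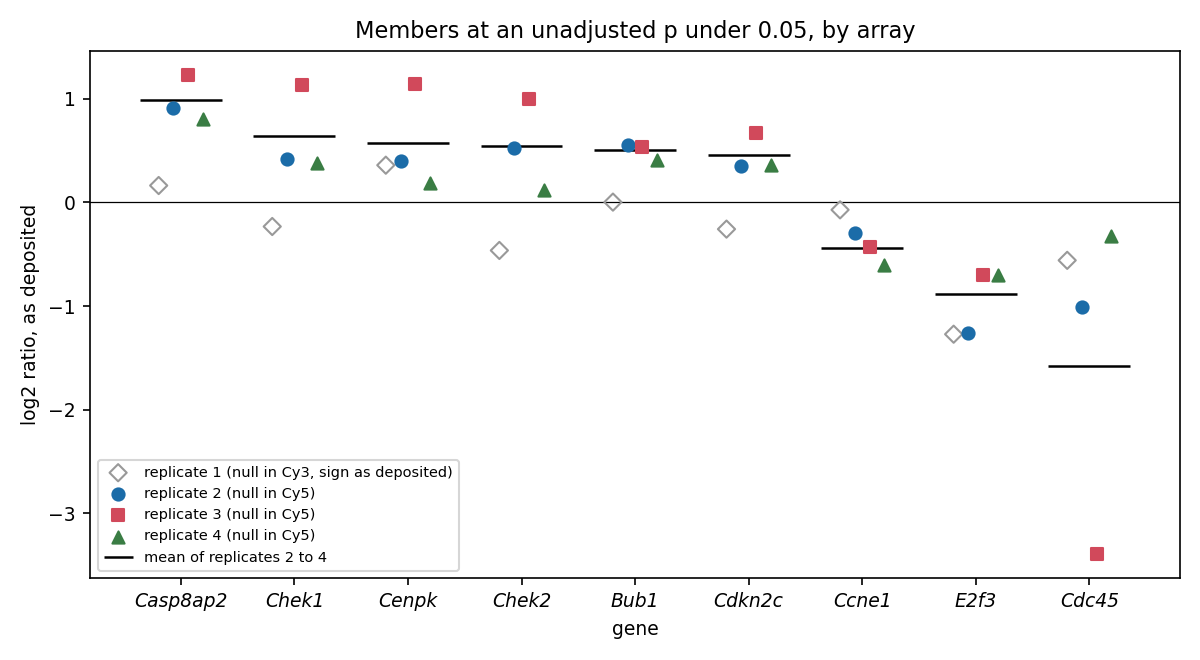
Log2 ratio on each array, signs as deposited, for the 9 members at an unadjusted p under 0.05. Filled symbols are replicates 2 to 4, open diamonds are replicate 1, and bars are means of replicates 2 to 4. Replicate 3 is the highest array for Casp8ap2, Chek1, Chek2, Cenpk and Cdkn2c and lies at -3.39 for Cdc45.

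Origins are licensed when the origin recognition complex loads the MCM helicase, which Cdc45 then helps to start. Of 15 tested genes of this step 5 were positive and 10 negative, and Cdc45 alone was at an unadjusted p under 0.05. It had -1.01, -3.39 and -0.33 on replicates 2, 3 and 4, a mean of -1.58 ± 1.61 (SD, n = 3) and an adjusted p of 0.484 in limma. Replicate 1 had -0.56. All 3 values of the test were negative, but replicate 3 set the size, and without it the mean was -0.67. Under a variance prior that allows for outlying probes, Cdc45 was no longer at an unadjusted p under 0.05.

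The 6 subunits of the MCM helicase, which unwinds DNA at the fork, had means from -0.25 to 0.15, 1 positive and 5 negative, and none kept a single sign on all 3 arrays. Mcm7 was lowest, with 0.018, -0.71 and -0.048 on replicates 2, 3 and 4, and -0.66 on replicate 1 as deposited. Mcm4 was highest, with 0.47, -0.091 and 0.064 on replicates 2, 3 and 4. Mcm2, a common marker of cycling cells, had -0.15 ± 0.18 (SD, n = 3), Mcm3 had -0.076 ± 0.21, Mcm5 had -0.11 ± 0.30 and Mcm6 had -0.20 ± 0.43. The 95% interval of each of the 6 means included 0.

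The 6 subunits of the origin recognition complex, Orc1 to Orc6, had means from -0.16 to 0.13, 3 positive and 3 negative. Orc1, the subunit that varies with the cycle, had -0.15, -0.12 and -0.21 on replicates 2, 3 and 4. Its mean was -0.16 ± 0.047 (SD, n = 3) with an adjusted p of 0.718. On replicate 1 all 6 subunits were positive as deposited, between 0.21 and 0.59, where 39 of 97 members and 50.2% of all probes were positive. Cdc6, the loading factor of the MCM helicase, had no value on replicate 3 and was not tested. It had 0.68 on replicate 2, 0.53 on replicate 4 and -0.29 on replicate 1. Cdc7, the kinase that fires origins, had 0.046 ± 0.18.

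Genes of DNA synthesis had 6 positive and 9 negative means, from -0.31 to 0.16, and no member at an unadjusted p under 0.05. Pcna, the sliding clamp of the polymerases and a standard proliferation marker, had -0.30, 0.81 and -0.77 on replicates 2, 3 and 4. The signs were mixed, and the mean of -0.090 ± 0.81 (SD, n = 3) had a 95% interval of -0.85 to 0.67. Without replicate 3 the mean of Pcna was -0.54 and stood at an unadjusted p under 0.05. The ribonucleotide reductase subunits Rrm1 and Rrm2, which make deoxynucleotides, had -0.11 ± 0.25 and 0.035 ± 0.34. Top2a, the topoisomerase of dividing cells, had -0.11, -0.16 and -0.077 on replicates 2, 3 and 4. Its SD of 0.041 was small, yet the mean of -0.11 had an interval of -0.45 to 0.23 because limma moderates the spread toward that of other probes. Pola2, a subunit of the polymerase that primes DNA, had -0.16, 0.028 and -0.80 on replicates 2, 3 and 4, a mean of -0.31 ± 0.44. Pole2, of the leading strand polymerase, had -0.22, 0.037 and -0.73 on replicates 2, 3 and 4, a mean of -0.30 ± 0.39. Both means rested on replicate 4, without which they were -0.067 for Pola2 and -0.090 for Pole2. The primase subunit Prim2 was negative on replicates 2 to 4, at -0.19 ± 0.19 with an adjusted p of 0.699, and had 0.47 on replicate 1. Within the polymerase alpha-primase complex, means ran from -0.31 to 0.13, 2 positive and 2 negative.

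**Figure D4:**
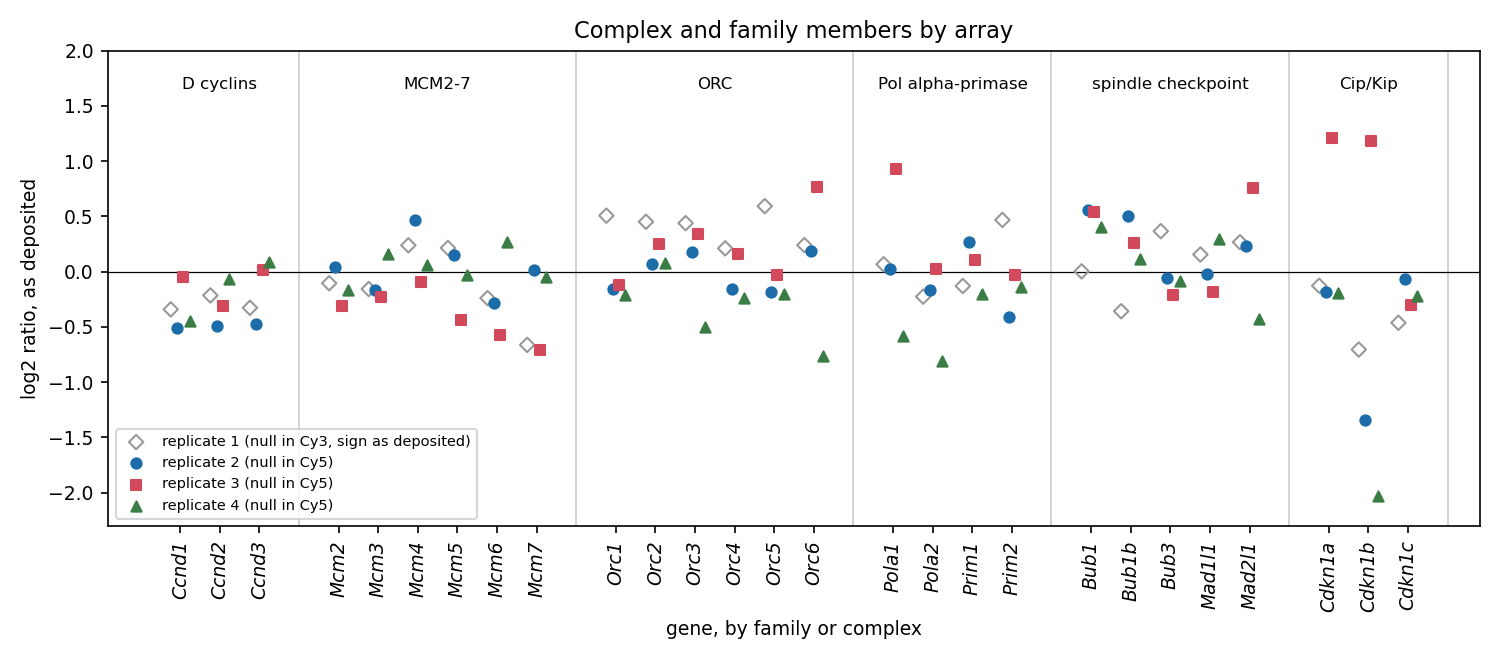
Log2 ratio on each array, signs as deposited, for members of 6 complexes and families. Filled symbols are replicates 2 to 4 and open diamonds are replicate 1. The D-type cyclins lie mostly below 0, the origin recognition subunits are all above 0 on replicate 1, and Cdkn1a and Cdkn1b stand at 1.21 and 1.18 on replicate 3.

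The DNA damage checkpoint kinases are a role of 3 members, of which Chek1 and Chek2 were at an unadjusted p under 0.05, a share too small in number to set against the 9.67% of all probes. Chek1, which acts when forks stall, had 0.42, 1.14 and 0.38 on replicates 2, 3 and 4, a mean of 0.64 ± 0.43 (SD, n = 3) and an adjusted p of 0.473 in limma. Chek2, which acts at double strand breaks, had 0.52, 1.00 and 0.12 on replicates 2, 3 and 4, a mean of 0.55 ± 0.44 (SD, n = 3) and an adjusted p of 0.488. Both were positive on all 3 arrays and highest on replicate 3, with 95% intervals of 0.15 to 1.14 for Chek1 and 0.046 to 1.05 for Chek2. On replicate 1 they had -0.23 and -0.46 in that order as deposited, so that turning this array would put all 4 arrays on one side. With it turned, the means of 4 arrays were 0.54 for Chek1 and 0.53 for Chek2. With it as deposited they were 0.42 and 0.29, and neither was at an unadjusted p under 0.05. Without replicate 3 the means were 0.40 for Chek1 and 0.32 for Chek2, and neither was at an unadjusted p under 0.05. Wee1, which holds Cdk1 inactive before mitosis, had -0.20, -2.87 and 0.038 on replicates 2, 3 and 4. Its mean of -1.01 over replicates 2 to 4 rested on replicate 3, with an interval of -2.42 to 0.39. Replicate 1 had -1.34 for Wee1 as deposited, and the mean of 4 arrays was then -1.09 and at an unadjusted p under 0.05. With replicate 1 turned, that mean was -0.43 and not at an unadjusted p under 0.05.

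Among mitotic kinases and spindle checkpoint genes, 7 were positive and 5 negative. Bub1, the checkpoint kinase at unattached kinetochores, had 0.56, 0.54 and 0.41 on replicates 2, 3 and 4. These values lay close together, with a mean of 0.50 ± 0.082 (SD, n = 3), a 95% interval of 0.16 to 0.85 and an adjusted p of 0.473 in limma. Replicate 1 had 0.0037, close to 0 under either sign. The related Bub1b, which inhibits the anaphase-promoting complex, had 0.51, 0.26 and 0.11 on replicates 2, 3 and 4, a mean of 0.29 ± 0.20 (SD, n = 3) and an adjusted p of 0.575. Cdc20, the activator of that complex, had 0.15, 0.38 and 0.35 on replicates 2, 3 and 4, a mean of 0.30 ± 0.12 (SD, n = 3) and an adjusted p of 0.558. Both were positive on these 3 arrays, and replicate 1 had -0.36 for Bub1b and -0.12 for Cdc20. Bub3, Mad1l1 and Mad2l1, the partners in the same checkpoint, had -0.12 ± 0.081, 0.032 ± 0.24 and 0.19 ± 0.59 in that order, so the checkpoint genes did not share a direction. The Aurora and Polo-like kinases, which build and use the spindle, had means between -0.075 for Aurka and 0.14 for Aurkb.

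Of 8 centromere protein genes, 7 had a positive mean, beside 47.4% of all probes. Only 3 of the 8 were positive on each of replicates 2 to 4, beside 16.3% of all probes. On replicate 1 as deposited 2 of the 8 were positive, with a median of -0.21. Cenpk, a subunit of the inner kinetochore, had 0.40, 1.14 and 0.19 on replicates 2, 3 and 4, a mean of 0.58 ± 0.50 (SD, n = 3) and an adjusted p of 0.494 in limma. Cenph, its neighbour in the same complex, had 0.22, 0.70 and 0.040 on replicates 2, 3 and 4, a mean of 0.32 ± 0.34 (SD, n = 3) and an adjusted p of 0.604. Both were positive on all 3 arrays and highest on replicate 3, without which Cenpk had a mean of 0.30. Replicate 1 had 0.36 for Cenpk and -0.21 for Cenph. Cenpb, which binds satellite DNA, was negative on replicates 2 to 4, at -0.32 ± 0.24 (SD, n = 3) with an adjusted p of 0.569. On replicate 1 Cenpb had -0.42 as deposited, and with that array turned the mean of 4 arrays was -0.13. The median of this role stood at 0.19, 0.56 and -0.050 on replicates 2, 3 and 4, so that the positive median over arrays was not seen on replicate 4.

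Casp8ap2, known for its part in the processing of histone RNA during S phase and in apoptosis, had the highest mean of the set. It had 0.92, 1.23 and 0.80 on replicates 2, 3 and 4, all positive. The mean was 0.98 ± 0.22 (SD, n = 3), or 1.98-fold in size, with a 95% interval of 0.60 to 1.37 and an adjusted p of 0.450 in limma. Replicate 1 had 0.16. Mki67, the standard marker of cycling cells, had 0.33, -0.12 and -0.20 on replicates 2, 3 and 4 and a mean of 0.00084 ± 0.29 (SD, n = 3), with an interval of -0.41 to 0.42. Cdc25a, the phosphatase that activates the kinases, had 0.19 ± 0.16 and Cdc37 had -0.22 ± 0.23. The 95% intervals of the proliferation markers Mki67, Pcna and Top2a thus all included 0, although Top2a was negative on each of replicates 2 to 4. Pcna alone of them stood at an unadjusted p under 0.05 without replicate 3.

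Other genes of the pathway that the names did not take in were looked at as lists. Of 39 other S phase genes, 21 were tested on 22 probes, with 7 positive and 15 negative means, a median of -0.034 and array medians from -0.12 to -0.049. At an unadjusted p under 0.05 stood 2 probes, for Brca2, a repair gene, at 0.58 ± 0.33 (SD, n = 3), and for 1 of 2 probes of Dnmt1, the maintenance DNA methyltransferase, at -0.48 ± 0.24 (SD, n = 3). The other Dnmt1 probe had -0.29 ± 0.096 and did not pass, and on replicate 1 it had 0.26 against -0.27 for the first. Of 60 other mitotic genes, 30 were tested, with 20 positive and 10 negative means, a median of 0.076 and array medians from 0.021 to 0.082. There too 2 genes were at an unadjusted p under 0.05, Mybl2, a factor of late cell cycle genes, at 0.44 ± 0.31 (SD, n = 3), and Smc3, a cohesin subunit, at 0.37 ± 0.15 (SD, n = 3). These shares lay at or below the 9.67% of all probes. None of the 4 had an adjusted p under 0.05 in limma, the values lying between 0.473 for Brca2 and that Dnmt1 probe and 0.508 for Smc3.

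The cells that divide and those that have left the cycle were followed by their own markers, whose counts stand beside 9.67% of all probes at an unadjusted p under 0.05, 5.61% positive and 4.06% negative. Of all probes 47.4% had a positive mean. The neural progenitor list had 9 of 21 probes positive, 4 (19%) at an unadjusted p under 0.05 and array medians from -0.16 to -0.045. The neuron list had 6 of 21 probes positive, 3 (14.3%) at an unadjusted p under 0.05 and array medians from -0.13 to -0.073. Neither list set progenitors against neurons, since both medians were below 0 on every array of the 3. None of the probes of these or the other lists had an adjusted p under 0.05 in limma. The vessel list had 3 of 11 probes positive, 5 (45.5%) at an unadjusted p under 0.05 and array medians from -0.49 to -0.26, and the meninges list had 1 of 9 probes positive, 3 (33.3%) at an unadjusted p under 0.05 and array medians from -0.48 to -0.26. The microglia and leukocyte list had 9 of 12 probes positive, 5 (41.7%) at an unadjusted p under 0.05 and array medians from 0.28 to 0.31. Blood markers had 2 of 6 probes positive, 3 (50%) at an unadjusted p under 0.05 and array medians from -0.27 to 0.054, and choroid plexus markers had 3 of 5 probes positive, 3 (60%) at an unadjusted p under 0.05 and array medians from -0.38 to 0.53. By sign, the progenitor probes at an unadjusted p under 0.05 were 2 positive and 2 negative, and the neuron probes 1 positive and 2 negative. Those of blood were 1 positive and 2 negative, and those of choroid plexus 2 positive and 1 negative. All 5 of vessels and all 3 of meninges were negative, and all 5 of microglia and leukocytes were positive. The part of these cells in the values of the cell cycle genes was not tested.

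All 4 arrays could be joined only under an assumed sign of replicate 1. On that array 39 of 97 members (40.2%) were positive as deposited, against 50.2% of all probes. The median was -0.12 against 0.0017 over all probes, the largest offset of the set on any array. With replicate 1 turned, 6 of 96 members were at an unadjusted p under 0.05, against 8.44% of all probes. All 6 were positive, beside 5.29% of probes, and 0 were negative, beside 3.15%. They were Bub1, Bub1b, Casp8ap2, Cdkn2c, Chek1 and Chek2. With replicate 1 as deposited, 10 members were, against 7.12% of all probes. Of these 3 were positive, beside 3.48% of probes, and 7 negative, beside 3.64%. The negative ones were Ccnd1, Ccne1, Cdc45, Cenpb, E2f1, E2f3 and Wee1, and the positive ones Bub1, Casp8ap2 and Cenpk. Bub1 and Casp8ap2 were listed under both signs, at 0.38 and 0.70 with replicate 1 turned and at 0.38 and 0.78 as deposited. Replicate 1 had 0.0037 and 0.16 for them in that order, so its sign could change these means only a little. Under either sign 0 members had an adjusted p under 0.05 in limma, against 0.0352% of all probes with replicate 1 as deposited and 0% with it turned, and the smallest was 0.522 with replicate 1 turned and 0.455 as deposited. The groups of members on each side therefore depend on a sign not given in the sources used here. With limma's array weights on replicates 2 to 4, 11 members were positive at an unadjusted p under 0.05, beside 9.2% of all probes, and 8 negative, beside 9.46%. An adjusted p under 0.05 was then reached by 0 members and 0.0524% of all probes.

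**Figure D5:**
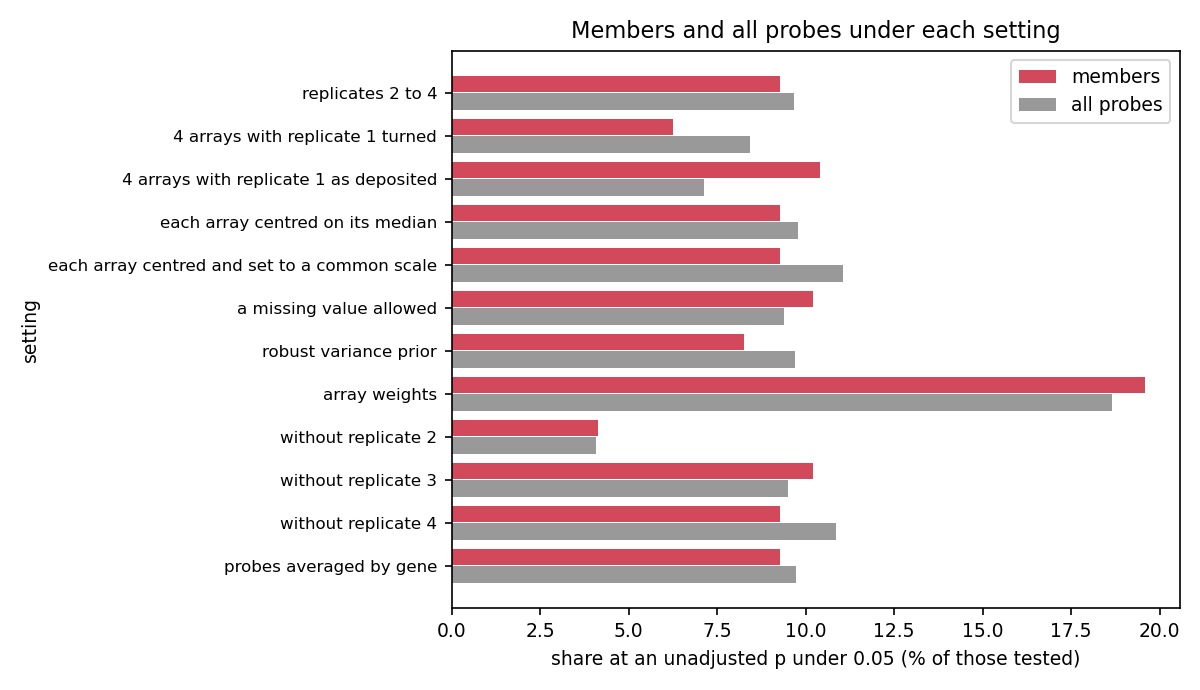
Share of members (red) and of all probes (grey) at an unadjusted p under 0.05, in % of those tested, for the fit of replicates 2 to 4 and for each other setting. The paired bars lie close together in most settings, and array weights raise both, to 19.6% of members and 18.7% of all probes.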

How the data were processed

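The values were the authors' deposited log2 ratios, and 0 value columns were left unused. What the authors did before depositing them (log base, numerator, background correction, normalization) is not given in the sources used here. The log2 scale was taken from the size of the values. Depth has no meaning for arrays, whose number limits the precision. Gene symbols came from the platform annotation, for 6269.0 of 6856.0 probes, and 0 changed when updated through Entrez IDs in the RefSeq table of GRCm38.p6.

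Mean ratios were tested against 0, two-sided, in limma 3.58.1 (R 4.3.3; functions lmFit and eBayes), and p-values were adjusted by Benjamini-Hochberg over all probes measured on replicates 2 to 4. The fit was run on simulated arrays, drawn independently from its own variance prior. Such arrays share no pool and no dye, so that run checks the code and not the limits of this design. The labels call the null samples biological replicates and name no litters. Members and lists were chosen with earlier results of these data known. Genes named were members at an unadjusted p under 0.05, the 3 with the smallest p in each role, and core genes such as Pcna and Mki67. From each other list up to 3 genes with the smallest p were to be named, of which the text gives those at an unadjusted p under 0.05 in the pathway lists. Further members were named after their values were seen, as relatives within a complex. Ccnb1 was not analysed here. Alternatives are listed in the closing section.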

Additional observations from a re-analysis of the deposited data

Results flagged for a closer look

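Among 49 named members measured on all 4 arrays, a single array stood far from the others for 4 genes. Each was looked at with replicate 1 turned and as deposited, which makes 98 groups of values, of which 5 were marked, where chance marks about 1 in 20. Cdk5r2 had -2.05 on replicate 2 under both signs. Cdkn1a had 1.21 on replicate 3 with replicate 1 as deposited. Cdc25a had 0.37 on replicate 2 with replicate 1 turned. Orc1 had 0.51 on replicate 1 as deposited, above its 3 other arrays.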

How the results depend on the processing

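Limits of the design come first. The numerator of the ratios, the sign of replicate 1 and the level of each gene are not known, all arrays share 1 pool, and 3 arrays carry 1 dye orientation. No paired analysis was possible because the series holds a single group of ratios. Scanner signals were not used here, so background and dim spots could not be varied. The number of members at an unadjusted p under 0.05 was 9 with 6 positive and 3 negative. With replicate 1 turned it was 6 positive and 0 negative, and with replicate 1 as deposited 3 positive and 7 negative. Array weights gave 19, with 11 positive and 8 negative, beside 18.7% of all probes. Leaving out a replicate gave 4 to 10 in all, 2 to 6 positive and 2 to 6 negative, with the low end without replicate 2 (4, of which 2 positive) and 6 negative without replicate 3. The share of all probes so called then lay between 4.09% and 10.9%. Median centring, a common scale and averaging by gene kept the same 9 genes, a missing value allowed added Cdc6, and the robust prior dropped Cdc45. The member median was -0.0041, -0.039 on a common scale and between -0.044 and -0.0050 without a replicate. The 9 genes kept their direction in all 11 settings, and Casp8ap2 kept an unadjusted p under 0.05 in each. Each of the 9 had a single sign on replicates 2 to 4, so settings built on these arrays could hardly reverse a direction. Only the settings with replicate 1 added another array. No member had an adjusted p under 0.05 in any setting, the smallest being 0.13 with array weights. The causes of these shifts were not tested.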
